A study of Mus musculus with 70 samples.

Results

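miR-142a is one microRNA precursor from which a pair of mature miRNAs is cut, miR-142a-5p from its 5′ arm and miR-142a-3p from its 3′ arm. Both arms were described here in microglia and in the other cells of the mouse brain during postnatal development, together with the ratio between them. Its 2 arms were chosen by name and are 2 of 1882 miRNA features in the table, each listed under 1 entry. The study sequenced small RNA of wild-type C57BL/6 mice of both sexes on postnatal days 6 (P6) and 15 (P15) and at 8 weeks of age. Each whole brain was digested to single cells and CD45+ cells, called microglia, were caught by immunopanning on an antibody-coated dish, while CD45- cells of the same brain served as the bulk CNS fraction. The 68 libraries analysed came from 34 mice, with 10 mice at P6 (4 female and 6 male) and 12 at P15 and 12 at 8 weeks (6 of each sex at either age), all of them wild type.

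miRNAs are short RNAs that guide Argonaute proteins to partly complementary sites in messenger RNAs, mostly through the seed at their 5′ end, and lower the output of those messages. A precursor hairpin is cut by Dicer into a duplex of its arms, of which one strand is usually kept by Argonaute and the other lost, so arms of one transcript can differ widely in level. miR-142 is made in blood cells of all lineages and in tissue macrophages, microglia included, and is hardly made elsewhere, which is why it is often used to mark or detarget haematopoietic cells.

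The mature sequences show which molecules were counted. Capitals mark the seed, bases 2 to 8 counted from the 5′ end, and the sequences are RefSeq's for GRCm38.p6.
mmu-miR-142a-3p: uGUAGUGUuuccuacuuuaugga
mmu-miR-142a-5p: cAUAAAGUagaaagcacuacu
mmu-miR-142b: uCCAUAAAguaggaaacacu
The 3p arm has 23 bases and lies at chr11:87756903-87756925 on the plus strand, and the 5p arm has 21 bases and lies at chr11:87756867-87756887 on the same strand, with 15 bases between them. The hairpin, chr11:87756864-87756927, lies within the long noncoding host gene Mir142hg (chr11:87755577-87757270, plus strand) and overlaps neither of its 2 exons in the GENCODE annotation, so it is intronic there. The seeds of the arms differ, and among 1679 mature mouse miRNAs in the RefSeq table, 0 others had the seed of the 3p arm and 0 others had that of the 5p arm. miR-142b is annotated on the opposite strand, at chr11:87756906-87756925, and is the reverse complement of a stretch within the 3p arm. Its bases 3 to 12 are the same as bases 1 to 10 of the 5p arm, so its seed is offset from that of the 5p arm. miR-142b received at most 9 counts in any library and was at 0 in 7 of 34 microglial and 31 of 34 bulk libraries, so the counts of this locus lay almost wholly in the arms of miR-142a.

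Depth was ample for both arms in microglia and thinner for the 5p arm in bulk cells. Total counts per library ranged from 1678034 to 5982922 in microglia and from 2795957 to 8747394 in bulk cells, and every P6 bulk library was deeper than every P6 microglial library. Microglial libraries held 18638 to 111332 counts of miR-142a-3p and 1654 to 13596 of miR-142a-5p. Bulk libraries held 519 to 2146 counts of the 3p arm and 38 to 425 counts of the 5p arm. A floor of 3 counts corresponded to at most 1.79 CPM (a count scaled to a library total of 1000000) in microglia, far below either arm. In bulk samples such as these, fewer cells of a type and less RNA per cell cannot be told apart.

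The first question was how strongly each arm marks microglia against the remaining cells of the same brain. Both arms were higher in microglia in 34 of 34 mice. Pooled over the ages, miR-142a-3p was higher by 6.45 ± 0.08 on the log2 scale (SE, adjusted p = 3.1e-60) and miR-142a-5p by 6.23 ± 0.11 (SE, adjusted p = 2e-50), or about 87.3-fold and 75.0-fold. The test was limma-voom's TREAT, which asks whether a log2 fold change exceeds 1 in either direction, with mouse as a random effect, and adjusted p-values for levels are from it throughout unless another test is named. Of the 1072 miRNAs tested, 23.3% were higher in microglia by this test.

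At P6, microglial miR-142a-3p ranged from 11107 to 27511 CPM with a median of 11460, and bulk miR-142a-3p from 84.3 to 152 CPM with a median of 107. At P15, the microglial values ranged from 9013 to 28083 CPM around a median of 20398, and the bulk values from 216 to 432 CPM around 273. At 8 weeks, they ranged from 7635 to 15486 CPM around 12873 in microglia and from 128.6 to 266 CPM around 175 in bulk cells. No bulk library reached the lowest microglial library of any age. The 5p arm, which was the lesser arm in every library, was likewise separated between the fractions. Its microglial values ranged from 856 to 2722 CPM (median 1150) at P6, from 810 to 3367 CPM (median 2297) at P15 and from 1384 to 2534 CPM (median 2038) at 8 weeks. In bulk cells it ranged from 6.00 to 20.1 CPM (median 15.4) at P6, from 26.4 to 62.8 CPM (median 36.0) at P15 and from 14.4 to 37.9 CPM (median 26.6) at 8 weeks.

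**Figure D1:**
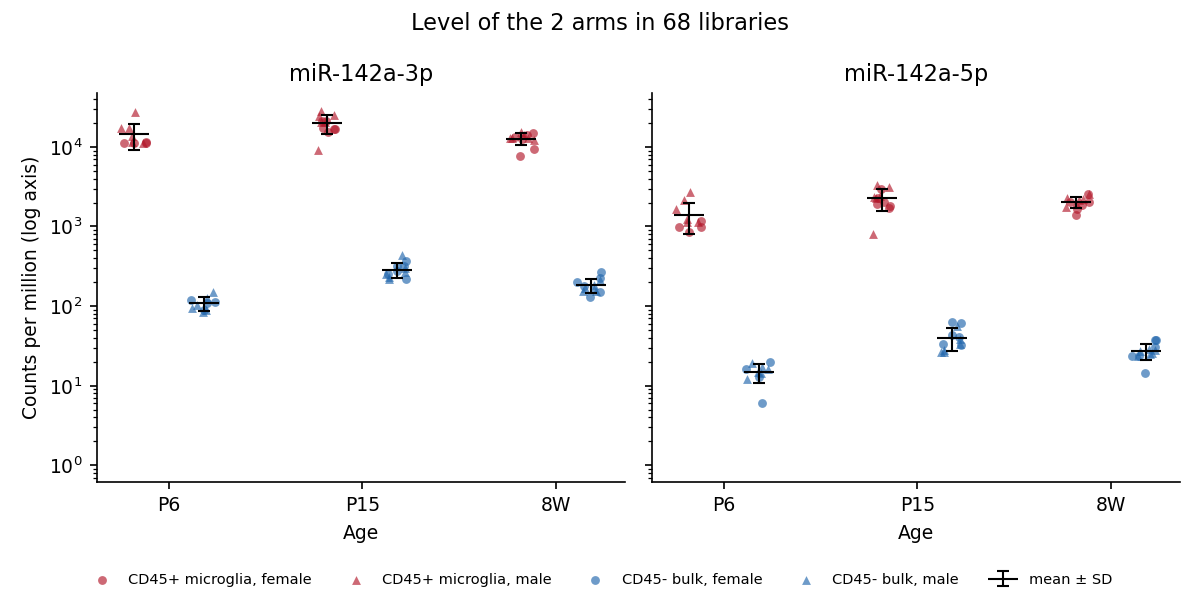
CPM of miR-142a-3p (left) and miR-142a-5p (right) on a log axis, by age, in CD45+ microglia (red) and CD45- bulk cells (blue), with circles for females, triangles for males and black bars for the mean ± SD over 10 mice at P6, 12 at P15 and 12 at 8 weeks (8W). The fractions are separated at every age for both arms, and the bulk values of all 12 P15 mice lie above those of all 10 P6 mice.

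By these levels miR-142a-3p was among the abundant miRNAs of microglia. It took 1.44% ± 0.523 (SD, n = 10) of all counts in P6 microglia, 1.97% ± 0.511 (SD, n = 12) at P15 and then 1.27% ± 0.221 (SD, n = 12) at 8 weeks, and stood between 9th and 27th of the 1882 features in single microglial libraries. In bulk libraries it stood between 136th and 266th. By mean CPM over the microglial libraries, where miR-142a-3p was 20th with 15658 CPM, its neighbours were miR-146a-5p (18560 CPM), miR-15a-5p (16233 CPM), miR-21a-5p (11720 CPM) and miR-26b-5p (9733 CPM). miR-142a-5p was 60th with 1923 CPM, next to miR-18a-5p (1942 CPM) and miR-135a-5p (1920 CPM). Such ranks compare reads between miRNAs of different sequence, whose capture in a library differs, and are given as a description.

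The enrichment held at each age. For miR-142a-3p the log2 difference was 6.88 ± 0.15 (SE, adjusted p = 7.2e-45) at P6, 6.28 ± 0.13 (adjusted p = 7.7e-46) at P15 and 6.19 ± 0.13 (adjusted p = 3.5e-45) at 8 weeks. For miR-142a-5p it was 6.39 ± 0.21 (adjusted p = 1.2e-33), 5.99 ± 0.17 (adjusted p = 6.9e-37) and 6.30 ± 0.18 (adjusted p = 9.7e-38). Among all miRNAs, 17.4% were higher in microglia at P6, 21.3% at P15 and 21.2% at 8 weeks. The difference in enrichment between ages was itself tested as an interaction of age with cell type, and for neither arm was a difference beyond 2-fold called. For miR-142a-3p it was -0.60 ± 0.20 (SE) from P6 to P15, -0.09 ± 0.18 from P15 to 8 weeks and -0.69 ± 0.20 from P6 to 8 weeks, each with an adjusted p of 1. For miR-142a-5p it was -0.41 ± 0.27, 0.32 ± 0.25 and -0.09 ± 0.28, each with an adjusted p of 1. These interactions were called for 1.59%, 3.36% and 14.6% of all miRNAs in the same order. Without a fold threshold, in limma's moderated test, the enrichment of the 3p arm was lower at P15 (adjusted p = 0.017) and at 8 weeks (adjusted p = 0.0026) than at P6. The median of these interactions over all miRNAs was -0.06 for P15 and -0.49 for 8 weeks, against -0.60 and -0.69 for the 3p arm, which stood 772nd and 591st of 1072 from the most positive. The same test called 25.1% and 53.6% of all miRNAs, and no interaction of the 5p arm passed it, the smallest adjusted p being 0.285.

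Within single mice, the fold in CPM of the microglial over the bulk library varied more than the group values show. For miR-142a-3p it ranged from 89.0 to 307 (median 112) at P6, from 20.8 to 113 (median 71.2) at P15 and from 33.96 to 109.6 (median 71.6) at 8 weeks. For miR-142a-5p it ranged from 58.4 to 187 (median 82.1) at P6, from 14.2 to 127 (median 58.6) at P15 and from 36.5 to 128.8 (median 73.8) at 8 weeks. Over all 34 mice, the same mouse had the smallest fold and the same mouse the largest fold for both arms, while within P6 the smallest and within P15 the largest fold belonged to different mice for the 3p and the 5p arm.

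The mouse with the smallest fold for both arms was P15 male mouse 1, though neither of its levels passed the check for a mouse far from its group. Its microglia held 9013 CPM of miR-142a-3p, where the next lowest P15 microglial library held 15228 CPM, and its bulk cells held 432 CPM, the highest of all bulk libraries. In the same mouse miR-223-3p, a myeloid miRNA, had a fold of 114 against a median of 168 at P15, and ranked 27th of 34 mice by that fold. The 7 neuronal miRNAs listed as markers summed to 26413 CPM in its microglia, 17th of the 34 mice, inside the range of 14873 to 42392 CPM for P15 microglia. Without this mouse the P15 enrichment was 6.46 for the 3p arm and 6.21 for the 5p arm. In P6 male mouse 5, with the largest fold, microglial miR-142a-3p was 27511 CPM where the next highest P6 library held 17487 CPM, its bulk level of 89.6 CPM was low within its group, and miR-223-3p had a fold of 353, 4th of 34. The 4 erythroid marker miRNAs (miR-451a, both arms of miR-144 and miR-486a-5p) summed to 44378 CPM in its microglia, the highest of the P6 libraries, followed by 32599 CPM in P6 male mouse 6, and their part in the level of miR-142a was not tested. Leaving this mouse out moved the P6 enrichment of the 3p arm to 6.78. In 8-week female mouse 1, which had the second smallest fold for the 3p arm, microglia held 7635 CPM and bulk cells 225 CPM of the 3p arm, and miR-223-3p had a fold of 127.9 against a median of 143.2 at that age.

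**Figure D2:**
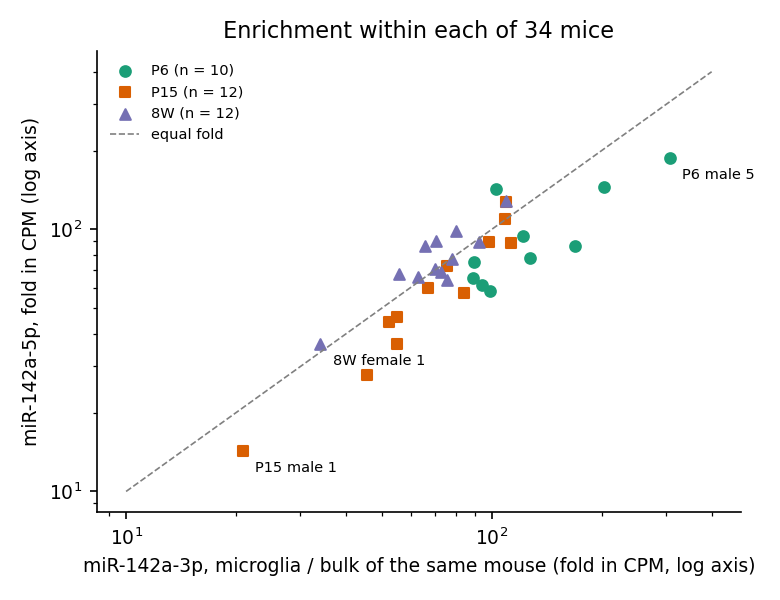
Fold in CPM between the paired libraries (microglial over bulk) of each of 34 mice, for miR-142a-3p (horizontal, log axis) and miR-142a-5p (vertical, log axis), with 1 point per mouse and ages by colour and shape. Points run along the dashed line of equal fold, from 20.8 and 14.2 in P15 male mouse 1 to 307 and 187 in P6 male mouse 5, and most P6 and P15 mice lie below the line while the 8-week mice lie around it.

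The next comparison asked how the level of each arm moved with age within a fraction. In microglia, the mean of miR-142a-3p was 14366 CPM ± 5234 (SD, n = 10) at P6, 19684 CPM ± 5110 (SD, n = 12) at P15 and 12709 CPM ± 2207 (SD, n = 12) at 8 weeks, and every pair of ages overlapped. The mean of miR-142a-5p was 1402 CPM ± 598 (SD, n = 10), 2250 CPM ± 689 (SD, n = 12) and 2029 CPM ± 340 (SD, n = 12), also with overlap between every pair of ages. No microglial age difference was called beyond 2-fold by TREAT. From P6 to P15 the log2 difference was 0.65 ± 0.13 (SE, adjusted p = 1) for the 3p arm and 0.90 ± 0.16 (adjusted p = 1) for the 5p arm, where 2.89% of all miRNAs were called. From P15 to 8 weeks it was -0.27 ± 0.12 (adjusted p = 1) and 0.24 ± 0.14 (adjusted p = 1), where 4.57% were called. Over the whole interval, from P6 to 8 weeks, it was 0.38 ± 0.13 (adjusted p = 1) for the 3p arm and 1.14 ± 0.16 (adjusted p = 0.661) for the 5p arm, in a comparison where 16.6% of all miRNAs were called. In CPM the 8-week means were 0.646 (3p) and 0.902 (5p) of the P15 means. Replacing TMM scaling by library size moved the median over all miRNAs from P15 to 8 weeks from -0.10 to -0.43.

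In bulk cells both arms lay higher at P15 than at P6 in CPM, without overlap. The mean of miR-142a-3p was 108 CPM ± 20.8 (SD, n = 10) at P6, 288 CPM ± 64.3 (SD, n = 12) at P15 and 183 CPM ± 38.3 (SD, n = 12) at 8 weeks. The mean of miR-142a-5p was 14.9 CPM ± 4.04 (SD, n = 10), 40.4 CPM ± 13.1 (SD, n = 12) and 27.2 CPM ± 6.33 (SD, n = 12). Of all miRNAs tested, 3.26% lay higher at P15 than at P6 in bulk cells without overlap. In CPM at 8 weeks, 10 of 12 mice were above every P6 mouse for the 3p arm and 11 of 12 for the 5p arm, and 10 of 12 were below every P15 mouse for the 3p arm and 6 of 12 for the 5p arm. The share of all miRNAs separated to this degree was not counted. By TREAT, the log2 difference from P6 to P15 was 1.25 ± 0.16 (SE, adjusted p = 0.715) for the 3p arm and 1.31 ± 0.24 (adjusted p = 0.974) for the 5p arm, so a change beyond 2-fold was not shown, and 3.54% of all miRNAs were called. From P6 to 8 weeks it was 1.06 ± 0.16 (adjusted p = 0.777) and 1.23 ± 0.25 (adjusted p = 0.462), where 25.7% were called. From P15 to 8 weeks it was -0.19 ± 0.15 and -0.08 ± 0.22, both with an adjusted p of 1, where 11% were called. In CPM the 8-week means were 0.633 (3p) and 0.674 (5p) of the P15 means, so the size of this fall depended on the scaling. Replacing TMM scaling by library size moved the median over all miRNAs in this comparison from 0.24 to -0.23.

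Without the fold threshold, the moderated test called both arms higher at P15 and at 8 weeks than at P6 in each fraction. Its adjusted p-values for P15 against P6 were 3.3e-05 (3p) and 2.6e-06 (5p) in microglia and 2.5e-09 (3p) and 7.9e-06 (5p) in bulk cells, where 34.1% and 38.8% of all miRNAs were called. For 8 weeks against P6 they were 0.0111 (3p) and 3.5e-09 (5p) in microglia and 5.9e-08 (3p) and 1.3e-05 (5p) in bulk cells, where 53.9% and 66.2% of all miRNAs were called. No change of either arm from P15 to 8 weeks passed it in either fraction. The direction in microglia from P6 to 8 weeks depended on the scaling for the 3p arm, as it was 0.38 with TMM scaling and -0.09 with library size alone, while the 5p arm kept a positive value of 0.68. Replacing TMM by library size moved the median over all miRNAs in that comparison from -0.17 to -0.64, and relative to these medians both arms lay above it under either scaling.

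Ordered by mean CPM, miR-142a-3p stood highest in P15 microglia, then in P6 and 8-week microglia, and then in P15, 8-week and P6 bulk cells. The neighbours P6 and 8-week microglia differed by less than their spread in CPM. The 5p arm had the order P15, 8-week and P6 in both fractions, and its P15 and 8-week microglia differed by less than their spread. Both of these microglial orders turned with TMM scaling, where the 3p arm was 0.38 higher at 8 weeks than at P6 and the 5p arm 0.24 higher at 8 weeks than at P15 on the log2 scale.

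Some marker miRNAs of blood cells moved with age in the same libraries. The 4 erythroid miRNAs (miR-451a, miR-144-3p, miR-144-5p and miR-486a-5p) summed to 18296 CPM (8113 to 44378) in P6 microglia, 55952 CPM (33990 to 107132) in P15 microglia and 23620 CPM (12598 to 39873) in 8-week microglia. In bulk cells they summed to 2055 CPM (1730 to 2476), 6321 CPM (3412 to 10675) and 4497 CPM (2674 to 6256), so their sums were highest at P15 in both fractions in CPM. The lymphocyte marker miR-150-5p was instead highest at 8 weeks in both fractions. At P6, P15 and 8 weeks it averaged 622, 966 and 2508 CPM in microglia and 2178, 5059 and 6512 CPM in bulk cells. Marker miRNAs of other cell types also moved with age in bulk cells, with all members of each list detected in every group. The sums at P6, P15 and 8 weeks were 1899, 17012 and 26338 CPM for 3 oligodendrocyte miRNAs, 89438, 116720 and 149775 CPM for the 7 neuronal ones, 25245, 30583 and 17608 CPM for 2 endothelial ones, 8182, 11120 and 11647 CPM for 4 mural or fibroblast ones and 3823, 1961 and 896 CPM for 3 multiciliated ones. The CD45+ fraction held these markers too. Its sums at P6, P15 and 8 weeks were 29821, 26488 and 25845 CPM for the neuronal miRNAs and 9823, 7387 and 9737 CPM for the mural or fibroblast ones. They were 746, 1591 and 1848 CPM for the oligodendrocyte, 2506, 2907 and 3579 CPM for the endothelial and 1446, 257 and 113 CPM for the multiciliated ones. The part of these cell types in the levels of miR-142a was not tested. Among other miRNAs of blood cells and macrophages, miR-223-3p averaged 2584, 2289 and 2108 CPM in microglia and 9.08, 15.9 and 16.1 CPM in bulk cells at P6, P15 and 8 weeks. miR-146a-5p averaged 148, 398 and 286 CPM in bulk cells, and with TMM scaling it was 1.30 above its P6 level at P15 and 1.33 above it at 8 weeks on the log2 scale.

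Whether the sexes differed was compared at each age in each fraction. No sex difference of either arm was called beyond 2-fold (adjusted p = 1 in each of 12 comparisons), and TREAT called 0% of all miRNAs in any of them. At an unadjusted p under 0.05 TREAT passed 0 to 13 miRNAs per comparison. In P15 bulk cells, where tests without a fold threshold called most, the moderated test called 19, edgeR's quasi-likelihood test 22 and DESeq2 16, and neither arm of miR-142a was among them. The largest values, as male minus female, were 0.56 ± 0.24 (SE) for miR-142a-5p in P6 microglia and -0.61 ± 0.30 for miR-142a-5p in P15 bulk cells.

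The ratio of the arms does not depend on library size or scaling, as both counts come from one library. The 3p arm outnumbered the 5p arm in all 68 libraries. In microglia, there were 10.6 ± 1.37 (SD, n = 10) counts of miR-142a-3p per count of miR-142a-5p at P6, 8.99 ± 1.34 (SD, n = 12) at P15 and then 6.34 ± 1.11 (SD, n = 12) at 8 weeks. The P6 libraries ranged from 8.01 to 13.2 with a median of 10.3, the P15 libraries from 7.25 to 11.1 with a median of 8.65 and the 8-week libraries from 4.64 to 7.92 with a median of 6.20. All 12 microglial libraries at 8 weeks were thus below all 10 at P6, while the P15 libraries overlapped both. Expressed as a share, miR-142a-3p made up 91.2% ± 1.07 (SD, n = 10), 89.8% ± 1.32 (SD, n = 12) and 86.1% ± 2.16 (SD, n = 12) of the counts of both arms. Counting error was small beside this spread, since in the 8-week library with the lowest share, 82.3%, the 95% Wilson interval ran from 82.0% to 82.6%.

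In bulk cells the ratio was 8.01 ± 3.82 (SD, n = 10) at P6, 7.42 ± 1.22 (SD, n = 12) at P15 and then 6.86 ± 1.22 (SD, n = 12) at 8 weeks. The P6 libraries ranged from 5.37 to 18.3 with a median of 7.15, the P15 libraries from 5.05 to 9.68 with a median of 7.67 and the 8-week libraries from 4.87 to 8.91 with a median of 6.80, so all ages overlapped. The ratio of 18.3 belonged to P6 female mouse 1, whose bulk library held 696 counts of the 3p arm and only 38 of the 5p arm (share of the 3p arm 94.8%, 95% Wilson interval 93.0% to 96.2%, counting error only). The next highest P6 bulk library was at 9.32. The microglial library of the same mouse, at 13.2, was also the highest of its group.

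**Figure D3:**
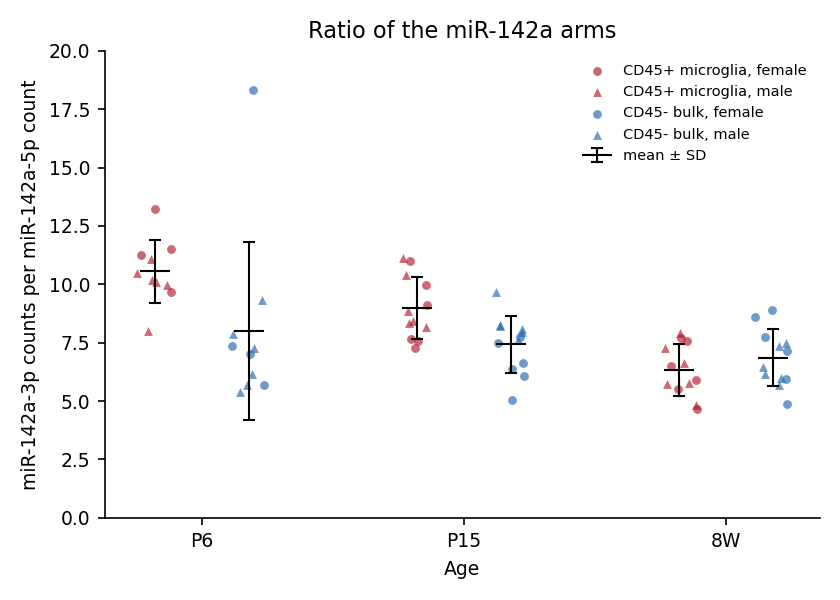
Counts of miR-142a-3p per count of miR-142a-5p in each library, by age, in CD45+ microglia (red) and CD45- bulk cells (blue), with circles for females, triangles for males and black bars for the mean ± SD over 10 mice at P6, 12 at P15 and 12 at 8 weeks (8W). Microglial ratios step down from a mean of 10.6 to 6.34, bulk ratios stay between means of 8.01 and 6.86, and a single P6 bulk library lies at 18.3.

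The change of the ratio with age was tested with limma on the log2 ratio over all 323 precursors for which both arms could be measured. In microglia, the ratio of miR-142a fell by 0.76 on the log2 scale (SE 0.12, adjusted p = 9e-08) from P6 to 8 weeks and by 0.51 (SE 0.11, adjusted p = 0.00023) from P15 to 8 weeks, where 39.3% and 23.8% of all precursors were called. From P6 to P15 the change was -0.25 ± 0.12 (SE, adjusted p = 0.142), where 12.4% were called. In a two-sided permutation test over mice, adjusted over 13 comparisons of this ratio, adjusted p-values were 0.00026 from P6 to 8 weeks, which is the smallest that 100000 resamples can give, 0.00039 from P15 to 8 weeks and 0.0235 from P6 to P15. In bulk cells no change was called, with values of -0.17 ± 0.12 (adjusted p = 0.242) from P6 to 8 weeks, -0.12 ± 0.11 (adjusted p = 0.456) from P15 to 8 weeks and -0.06 ± 0.12 (adjusted p = 0.863) from P6 to P15. Of all precursors, 41.8%, 34.7% and 10.8% were called in bulk cells over these intervals. Without P6 female mouse 1, the bulk change from P6 to 8 weeks was 0.01.

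Whether the change differed between the fractions was tested as an interaction. From P6 to 8 weeks, the log2 ratio moved by 0.59 less in bulk cells than in microglia (interaction -0.59 ± 0.16, SE, adjusted p = 0.003). From P15 to 8 weeks the interaction was -0.40 ± 0.15 (adjusted p = 0.0647) by limma and had an adjusted p of 0.0026 in the permutation test, and from P6 to P15 it was -0.19 ± 0.16 (adjusted p = 0.522). The interaction was called for 20.4% of all precursors from P6 to 8 weeks, 11.1% from P15 to 8 weeks and 4.33% from P6 to P15. With any 1 of the 34 mice left out, the interaction from P6 to 8 weeks ranged from -0.73 to -0.53 with adjusted p-values of at most 0.0124.

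The microglial ratio was above the bulk ratio of the same mice at P6 by a log2 difference of 0.48 ± 0.12 (SE, adjusted p = 0.00068) and at P15 by 0.29 ± 0.10 (adjusted p = 0.03), and at 8 weeks the difference was -0.11 ± 0.10 (adjusted p = 0.441). It was higher in microglia in 9 of 10 mice at P6, 10 of 12 at P15 and 5 of 12 at 8 weeks. The call at P15 was lost without any one of P15 female mice 1, 3 and 5 and P15 male mice 1 and 3, with adjusted p-values of up to 0.0888, and with no replicate block (adjusted p = 0.0569). Pooled over the ages the difference was 0.22 ± 0.06 (adjusted p = 0.0028). Of all precursors, 30.7% differed between the fractions at P6, 25.4% at P15, 33.4% at 8 weeks and 42.1% with the ages pooled.

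Shifts in arm ratio of this size were common among the precursors. The median absolute change from P6 to 8 weeks in microglia was 0.55 on the log2 scale, and miR-142a stood 114th of the 323 by size of change. A lower ratio at 8 weeks than at P6 in microglia without overlap, as for miR-142a, was seen in 2.79% of the precursors. By size of change the most negative precursors were miR-214 (-3.45 ± 0.66), miR-7b (-3.32 ± 0.34) and miR-448 (-2.55 ± 0.39), and the most positive were miR-449a (4.79 ± 0.53), miR-216b (4.21 ± 0.62) and miR-124 (3.05 ± 0.22). Several of these rested on few counts of one arm, with 20 counts of miR-214-5p and 15 of miR-449a-3p summed over all 34 microglial libraries.

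**Figure D4:**
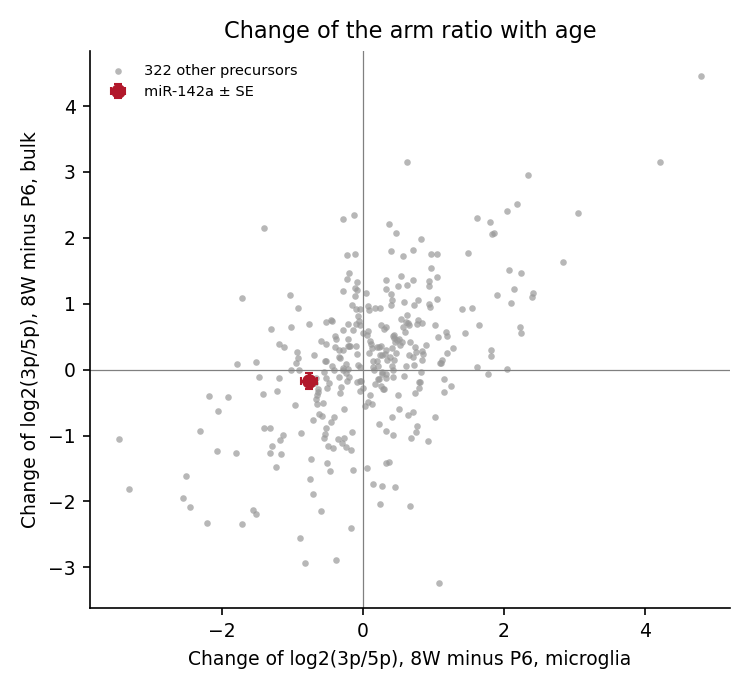
Change of log2(3p/5p) from P6 to 8 weeks in microglia (horizontal) and in bulk cells (vertical) for 323 precursors, with miR-142a in red (± SE) and the other 322 in grey. miR-142a lies at -0.76 in microglia and -0.17 in bulk cells, inside the cloud of the other precursors.

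A list of 16 mature miRNAs that blood cells or macrophages are known to make was set beside miR-142a. Of these, 15 passed the filter on low values and 1, miR-155-3p, did not. Of the 15, 12 were higher in microglia and 2 were lower with the ages pooled, and their median log2 fold change was 5.66 against 0.29 over all 1072 miRNAs, of which 23.3% were called higher and 21.8% lower. The list was chosen with earlier results of these data known, so these counts and this median describe it and test nothing. The arms of the macrophage miRNA miR-511 stood at 8.09 ± 0.25 (3p) and 6.72 ± 0.20 (5p), those of the myeloid miRNA miR-223 at 7.52 ± 0.09 (3p) and 7.22 ± 0.17 (5p), and those of miR-6983 at 7.72 ± 0.24 (3p) and 6.19 ± 0.16 (5p). Bulk counts of these arms were often few, with at most 10 counts of miR-511-3p and 2 of miR-223-5p in any bulk library. The values of miR-223-5p, miR-511-5p (at most 4 bulk counts) and miR-6983-5p (at most 1) depend on the offset added to counts and were not ordered against miR-142a. Of the other 12, miR-511-3p, miR-6983-3p and miR-223-3p lay above both arms of miR-142a with the ages pooled, and 9 lay below both. Bulk means of miR-511-3p, miR-6983-3p (at most 13 bulk counts) and miR-146a-3p (at most 16) were under 1 CPM at every age. The places of these miRNAs in the order therefore rest on few counts.

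With the ages pooled, next came miR-146a, a repressor of innate immune signalling, at 5.90 ± 0.08 (5p) and 5.66 ± 0.22 (3p). The enrichment of miR-146a-5p rose with age, from 5.19 ± 0.16 (P6) through 5.70 ± 0.14 (P15) to 6.82 ± 0.14 (8 weeks). In 8-week mice it thus stood above miR-142a-3p (6.19 ± 0.13) and miR-142a-5p (6.30 ± 0.18), a difference that was not tested. Lower in the pooled order were miR-342 at 3.26 ± 0.07 (3p) and 2.64 ± 0.07 (5p), and miR-21a at 3.25 ± 0.14 (3p) and 1.89 ± 0.05 (5p). The pooled value of miR-21a-5p covered 2.92 ± 0.10 at P6, 2.32 ± 0.09 at P15 and 0.44 ± 0.08 (adjusted p = 1) at 8 weeks. miR-155-5p, which activated immune cells make, was not called with the ages pooled (0.36 ± 0.07, adjusted p = 1) or at P6 (-0.26 ± 0.13) and P15 (-0.45 ± 0.12), but was higher in microglia at 8 weeks (1.79 ± 0.13, adjusted p = 1.2e-07). The lymphocyte miRNA miR-150 was lower in microglia than in bulk cells, at -1.76 ± 0.11 (5p, adjusted p = 2.6e-09) and -1.70 ± 0.23 (3p, adjusted p = 0.0045). miR-150-5p averaged 622, 966 and 2508 CPM in microglia and 2178, 5059 and 6512 CPM in bulk cells at P6, P15 and 8 weeks. In the same bulk libraries miR-142a-3p averaged 108, 288 and 183 CPM, and which cells held miR-150 there was not tested.

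**Figure D5:**
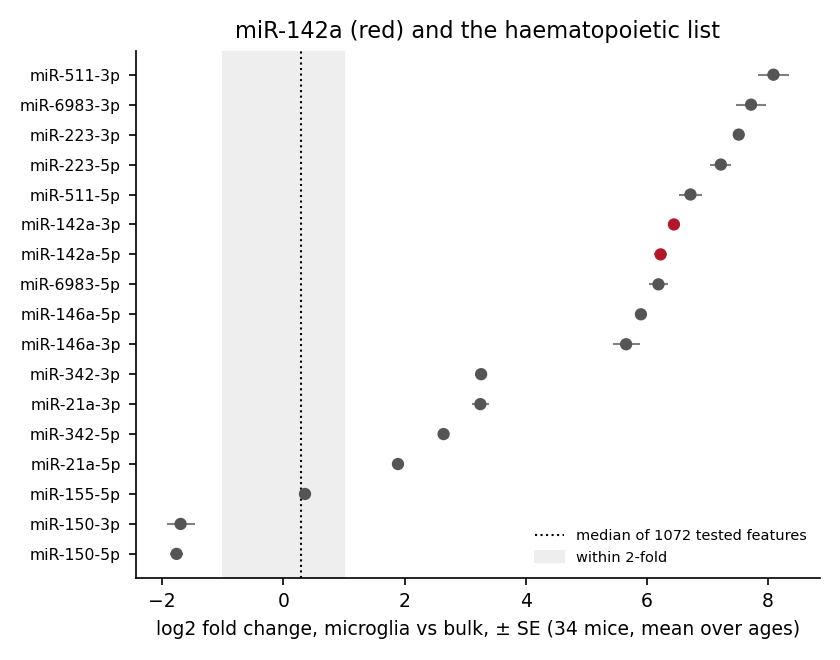
log2 fold change between microglia and bulk cells, averaged over the ages of 34 mice, with SE, for the arms of miR-142a (red) and the 15 tested miRNAs of the haematopoietic list (grey). The grey band marks a change within 2-fold and the dotted line the median of 1072 miRNAs. The arms of miR-142a stand at 6.45 and 6.23, below miR-511-3p, miR-223-3p and miR-6983-3p and above those of miR-146a, while those of miR-150 lie below 0. The places of miR-511-3p, miR-6983-3p and miR-146a-3p rest on few bulk counts, and at 8 weeks miR-146a-5p stood above both arms of miR-142a.

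From P6 to 8 weeks in microglia, 5 of the 15 were higher and 1 was lower, where 7.18% of all miRNAs were called higher and 9.42% lower, and their median was 0.59 against -0.17 over all miRNAs. The higher ones were both arms of miR-146a (2.97 ± 0.14 for 5p, 1.73 ± 0.24 for 3p), both arms of miR-150 (2.38 ± 0.21 for 5p, 2.44 ± 0.51 for 3p) and miR-342-3p (1.33 ± 0.13), and the lower one was miR-21a-3p (-2.10 ± 0.19). With library size alone, miR-146a-3p (1.29), miR-150-3p (1.955) and miR-342-3p (0.87) were no longer called and both arms of miR-511 (-1.85 for 3p, -1.75 for 5p) were called lower. The arm ratio could be tested for 7 of the 8 precursors of the list, and 3 of them changed from P6 to 8 weeks in microglia, against 39.3% of all. The ratio of 3p to 5p was lower at 8 weeks for miR-21a (-1.40 ± 0.20) and miR-146a (-1.22 ± 0.42) and higher for miR-342 (1.41 ± 0.17), whereas that of miR-223 was 0.22 ± 0.34 (adjusted p = 0.661).

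The arms followed each other across mice to a degree that varied between groups. Over TMM-scaled log2 CPM, Pearson's r between the arms was 0.915 in P6 microglia (Spearman's rho 0.806, n = 10), 0.914 in P15 microglia (rho 0.671, n = 12) and 0.521 in 8-week microglia (rho 0.336, n = 12). In bulk cells it was 0.270 (rho 0.394, n = 10), 0.946 (rho 0.923, n = 12) and 0.627 (rho 0.559, n = 12). In permutation tests adjusted over the 6 relations, p was 0.0014 for r and 0.0227 for rho in P6 microglia, 0.0032 and 0.0396 in P15 microglia and 0.0794 and 0.288 in 8-week microglia. In bulk cells the permutation p-values were 0.496 and 0.288 at P6, 0.00024 and 0.0006 at P15 and 0.0381 and 0.0961 at 8 weeks. Without the 2 mice farthest from the median of the 3p arm, r was 0.853, 0.591 and -0.03 in microglia and 0.175, 0.938 and 0.241 in bulk cells. The permutation test adjusted over the 6 relations then still called r in P15 bulk cells (adjusted p = 0.0011). It no longer called r in P6 microglia (adjusted p = 0.0629), P15 microglia (adjusted p = 0.169) and 8-week bulk cells (adjusted p = 0.796). With fewer mice and a narrower range of the 3p arm, a lost call cannot show that a relation rested on those mice. In P6 microglia r was still 0.853.

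Of the miRNAs with a mean of at least 10 CPM in microglia, those whose pattern over all 68 libraries was most like miR-142a were miR-223-3p, miR-6983-3p, miR-223-5p, miR-339-5p and miR-339-3p. This order was by Pearson's r of log2 CPM across libraries, with values from 0.990 (miR-223-3p) to 0.978 (miR-339-3p) for the 3p arm and from 0.983 (miR-223-3p) to 0.974 (miR-223-5p) for the 5p arm, and these libraries share the contrast between the fractions. The 34 microglial libraries lack that contrast but still pool the ages, so r over them also holds differences between ages. Over these libraries, the miRNAs most like miR-142a-3p were miR-450b-5p (r = 0.852), miR-146b-5p (r = 0.847), miR-326-3p (r = 0.807), miR-339-3p (r = 0.798) and miR-15a-3p (r = 0.798). Those most like miR-142a-5p were miR-190a-5p (r = 0.920), miR-190a-3p (r = 0.897), miR-450b-5p (r = 0.886), miR-185-5p (r = 0.874) and miR-15a-3p (r = 0.872). The arms of miR-142a had r = 0.791 with each other over the 34 microglial libraries and 0.994 over all 68.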

How the data were processed

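Per the labels and the methods of the study, the authors trimmed reads with fastp 0.20.0, mapped them to mature miRNAs of miRBase and then to GRCm38 with miRDeep2, and deposited raw read counts per mature miRNA and library. Reads carry no molecular identifiers. From 2029 entries under 1885 names, the entry with the largest total was kept per name and 3 duplicate candidate miRNAs were dropped. Of 70 deposited libraries, both of P6 female mouse 6 were left out, since the authors removed an outlier whose identity was inferred from their source data and is uncertain.

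miRNAs that reached 1 CPM in 5 or more libraries were fitted with limma-voom (limma 3.58.1, edgeR 4.0.16 with TMM scaling, R 4.3.3) on 12 group means of age, sex and cell type, averaged over the sexes, at an FDR of 0.05 after Benjamini-Hochberg adjustment over all features. The microglial and bulk library of a mouse share its number and brain, which made mouse the block (random effect, correlation 0.124, and 0.127 for arm ratios). Deviations from group means correlated by 0.0739 within mice and by -0.02 between mice. Arm ratios were log2 ratios of counts plus 0.5. Permutations were run in scipy 1.17.1. The fits were checked on simulated counts. Alternatives were other scalings, filters, pseudocounts, blocks and tests (edgeR's quasi-likelihood test, DESeq2 1.42.0), thinned libraries, summed entries and leaving out each mouse. Genome positions are from GENCODE M21 and RefSeq. Named miRNAs were the arms, a haematopoietic list, the 5 most alike by correlation, those sharing a seed, miR-142b, the 3 largest ratio changes in each direction and rank neighbours. The members and lists were chosen with earlier results of these data known.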

Additional observations from a re-analysis of the deposited data

Results flagged for a closer look

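The test of the difference between the fractions in the change of the arm ratio from P6 to 8 weeks gave -0.59 on the log2 scale (adjusted p = 0.003), with a lower ratio at 8 weeks in microglia. Among 36 checks for a single mouse far from its group, each at a level where chance alone gives about 1 in 20, 2 passed, both for the arm ratio. The log2 arm ratio of P6 male mouse 1 in microglia was 3.002, below the other 5 males, whose values ran from 3.31 to 3.47. The log2 arm ratio of P15 male mouse 6 in bulk cells was 3.27, above the other 5 males, whose values ran from 2.92 to 3.04, and its bulk library held 74 counts of miR-142a-5p.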

How the results depend on the processing

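The enrichment of both arms kept its direction and call under every alternative run, and so did the fall of the microglial arm ratio from P6 to 8 weeks and its interaction, except that TREAT against a log2 change of 0.5 called neither. With mouse as a fixed replicate block the pooled enrichment was 6.45 for the 3p arm and 6.21 for the 5p arm, and without the replicate block it was 6.45 and 6.23. The block changed 1 call, the arm ratio of microglia against bulk cells at P15 (0.29), which was lost without it.

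Tests with no fold threshold called age differences that TREAT did not. These were, for the 3p arm by the moderated test, P15 against P6 in microglia (0.65) and bulk cells (1.25), 8 weeks against P6 in microglia (0.38) and bulk cells (1.06) and the interactions of P15 (-0.60) and 8 weeks (-0.69) with P6, and for the 5p arm P15 against P6 (0.90 and 1.31) and 8 weeks against P6 (1.14 and 1.23). By edgeR's quasi-likelihood test the same comparisons gave 0.66, 1.29, 0.37, 1.06, -0.62 and -0.69 for the 3p arm and 0.94, 1.32, 1.14 and 1.19 for the 5p arm. By DESeq2's Wald test they gave 0.69, 1.39, 0.36, 1.02, -0.70 and -0.67 for the 3p arm and 0.95, 1.42, 1.12 and 1.16 for the 5p arm, and 8 weeks against P15 was called lower for the 3p arm in microglia (-0.33) and bulk cells (-0.37). Of all miRNAs, 178 were called between P6 and 8 weeks in microglia by TREAT (77 higher and 101 lower), 578 by the moderated test, 581 by edgeR and 593 by DESeq2, and with library size alone TREAT called 39 higher and 175 lower.

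Values near 0 changed sign. With library size alone the 3p arm in microglia from P6 to 8 weeks was -0.086, the 5p arm from P15 to 8 weeks was -0.093, its sex difference in 8-week bulk cells was 0.011, miR-223-3p in microglia from P6 to 8 weeks was -0.26 and miR-342-3p in bulk cells was -0.22. The interaction of the 3p arm from P15 to 8 weeks was 0.061 with library size alone, 0.050 with DESeq2 size factors, 0.048 with no filter, 0.078 with at least 10 counts in at least 12 libraries, 0.024 with summed entries, 0.024 in thinned libraries and 0.035 by DESeq2. With P6 female mouse 6 included, the interaction of the 5p arm from P6 to 8 weeks was 0.062 and the bulk arm ratio from P6 to P15 changed by 0.026. Leaving out each mouse in turn, ranges that crossed 0 were -0.28 to 0.11 for the 3p interaction from P15 to 8 weeks, -0.16 to 0.12 for the 5p interaction from P6 to 8 weeks, -0.19 to 0.027 for the 5p arm in bulk cells from P15 to 8 weeks, and -0.16 to 0.12 and -0.27 to 0.0070 for the bulk arm ratio from P6 to P15 and to 8 weeks. Other age differences of the arms that TREAT did not call kept their sign and moved by over 1.5 times without P15 male mouse 1 (the 5p arm in microglia from P15 to 8 weeks to 0.11, its interactions from P6 to P15 to -0.18 and from P15 to 8 weeks to 0.080) or P15 male mouse 5 (the 3p arm in microglia from P15 to 8 weeks to -0.14), among others. Sex differences crossed 0 for the 3p arm in P15 microglia (-0.0077 to 0.29), 8-week microglia (-8.2e-05 to 0.19) and P6 bulk cells (-0.12 to 0.050), and for the 5p arm in P15 microglia (-0.12 to 0.26), P6 bulk cells (-0.093 to 0.47) and 8-week bulk cells (-0.17 to 0.096).

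For the arm ratio, TREAT against 0.5 lost the calls of microglia against bulk cells at P6 (0.48), P15 (0.29) and pooled (0.22), of the microglial change from P15 (-0.51) and P6 (-0.76) to 8 weeks, and of the interaction from P6 to 8 weeks (-0.59). The interaction from P15 to 8 weeks was called with a pseudocount of 5 (-0.39), with at least 10 counts of each arm (-0.40) and in the permutation test (-0.40), which also called the microglial change from P6 to P15 (-0.23). Leaving out each mouse gave 0.25 to 0.32 for microglia against bulk cells at P15 and -0.43 to -0.36 for the interaction from P15 to 8 weeks. The correlation of the arms without the 2 farthest mice, chosen after seeing the data, was 0.59 in P15 microglia, -0.029 in 8-week microglia and 0.24 in 8-week bulk cells. The cause of these changes was not tested. The bulk 5p arm had the fewest counts, 38 to 425 per library.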

Other observations

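P6 female mouse 6, which was left out of the comparisons, had 5081 CPM of miR-142a-3p and 505 CPM of miR-142a-5p in microglia, both below the range of the other P6 microglial libraries. Its bulk library had 87.2 CPM of the 3p arm and 18.4 CPM of the 5p arm, both inside the range of the other P6 bulk libraries. The ratio of the arms was 10.1 in its microglia, inside the range of the group, and 4.74 in its bulk cells, below the range of the group.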
